A study of Mus musculus with 18 samples.

Results

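Expression and open chromatin were described in lung tumors of TKO;NfibR388K mice, a mouse model of small cell lung cancer (SCLC) with a mutant NFIB. All libraries of this genotype were taken, which are 6 of the 18 samples of the series, 3 for RNA-seq and 3 for ATAC-seq. Within each assay the 3 libraries come from independent animals, and the study states that both assays used the same tumors. The labels give the strain as homozygous conditional for Rb1, Rbl1 and p53, while the study's text names Rbl2 in most places in the position of Rbl1. These conditional alleles are shared by every genotype of the series. Nfib R388K is a knock-in that replaces an arginine of NFIB, the one methylated by CARM1, with lysine, so that it is present in every cell of the mouse and not only in the tumor. Tumors were induced with an adenovirus expressing Cre, given into the trachea at 8 weeks of age, and were collected 28 weeks later according to the labels. Sorting for a tdTomato reporter that Cre switches on is described, but the study speaks both of tumor biopsies and of cell lines for the material, so the state of the cells before sorting is not settled here. With 1 genotype there was no contrast to test, and each value below is that of 1 library or a summary of 3. The tumors are numbered 1, 2 and 3 after the replicate number of the library.

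SCLC is a cancer of neuroendocrine character, in which the transcription factor NEUROD1 marks a neuroendocrine state and YAP1 a state with low neuroendocrine expression. NFIB belongs to the nuclear factor I family, which binds DNA as a dimer at the sequence TTGGC and, 5 bases on, its reverse complement GCCAA and is known for opening chromatin in metastatic SCLC. ATAC-seq counts reads where a transposase could enter the DNA, and open chromatin at a transcription start site commonly accompanies transcription of the gene.

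The RNA-seq libraries held 17269208, 17989765 and 17676402 reads counted on genes, and the ATAC-seq libraries 30759293, 36907914 and 42215940 reads counted on 111664 peaks that are shared by all samples of the series. A gene or peak with 3 counts or fewer was taken as not detected, which by library totals corresponds to at most 0.174 CPM (counts scaled to a library of 1000000) for genes and 0.0975 CPM for peaks, and covers counting error only. Expression levels are given as TPM, which divides counts by the exon length of the gene, and accessibility as CPM of the reads in peaks. At 1 CPM or more by library totals in all 3 libraries, 11487 genes were expressed and 63524 peaks were open.

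A few sequences show the features that the values below refer to. The first set holds the 250 bases before the RefSeq start sites (GRCm38.p6) of Sftpb, the gene with the largest spread between the tumors, and of Tpt1, the highly expressed gene with one of the smallest, with each CpG in capitals. The promoter of Isg15, an interferon response gene, is given with the letters of the interferon element, GAAA repeated after 2 free bases, in capitals. All 3 read in the direction of the gene, and they lie at chr6:72304360-72304609 on the plus strand, chr14:75845006-75845255 on the plus strand and chr4:156200819-156201068 on the minus strand.
Sftpb: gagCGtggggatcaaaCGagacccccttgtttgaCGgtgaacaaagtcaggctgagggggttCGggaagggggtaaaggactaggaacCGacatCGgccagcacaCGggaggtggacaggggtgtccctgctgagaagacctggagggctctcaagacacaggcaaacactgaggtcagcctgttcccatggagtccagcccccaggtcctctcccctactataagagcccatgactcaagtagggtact
Tpt1: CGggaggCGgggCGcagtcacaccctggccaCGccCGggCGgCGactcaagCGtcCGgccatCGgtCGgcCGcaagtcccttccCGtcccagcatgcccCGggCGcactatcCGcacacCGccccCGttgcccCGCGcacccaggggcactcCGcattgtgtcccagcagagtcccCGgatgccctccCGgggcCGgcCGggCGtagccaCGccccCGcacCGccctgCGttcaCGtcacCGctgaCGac
Isg15: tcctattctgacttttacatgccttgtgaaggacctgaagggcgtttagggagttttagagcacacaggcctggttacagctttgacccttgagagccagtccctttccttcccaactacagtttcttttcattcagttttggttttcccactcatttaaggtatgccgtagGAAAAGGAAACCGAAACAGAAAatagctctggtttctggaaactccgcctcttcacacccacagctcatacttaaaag
The Sftpb promoter holds 7 CpGs and that of Tpt1 holds 33 in the same length, and the Isg15 promoter holds 3 overlapping matches to the interferon element between bases 173 and 194.

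The second set holds 300 bases about the middle of 3 intergenic peaks (GRCm38, plus strand), with the AP-1 motif TGANTCA and the TEAD motif GGAATG, on either strand, in capitals. The first is among the most open peaks over 5000 bp from any start site that hold an AP-1 motif, and the others hold both motifs and were far higher in tumor 3. They were taken among peaks found once in the genome and with little repeat-masked sequence. In order, they lie at chr1:163382931-163383230 (19203 bp from the nearest start site, that of Gm24940), chr15:50172347-50172646 (114402 bp from Gm49198) and chr13:73431484-73431783 (35564 bp from Lpcat1).
Gm24940 peak: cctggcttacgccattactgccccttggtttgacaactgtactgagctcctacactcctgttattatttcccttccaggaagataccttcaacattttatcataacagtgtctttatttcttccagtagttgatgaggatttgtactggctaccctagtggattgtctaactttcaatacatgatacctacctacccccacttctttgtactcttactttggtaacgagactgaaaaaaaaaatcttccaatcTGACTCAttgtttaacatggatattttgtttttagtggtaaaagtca
Gm49198 peak: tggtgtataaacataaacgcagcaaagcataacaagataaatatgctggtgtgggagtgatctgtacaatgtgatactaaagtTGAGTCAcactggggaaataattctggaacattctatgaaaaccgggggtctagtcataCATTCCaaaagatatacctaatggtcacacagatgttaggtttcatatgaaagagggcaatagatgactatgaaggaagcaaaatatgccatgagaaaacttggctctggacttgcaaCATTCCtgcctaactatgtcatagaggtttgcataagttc
Lpcat1 peak: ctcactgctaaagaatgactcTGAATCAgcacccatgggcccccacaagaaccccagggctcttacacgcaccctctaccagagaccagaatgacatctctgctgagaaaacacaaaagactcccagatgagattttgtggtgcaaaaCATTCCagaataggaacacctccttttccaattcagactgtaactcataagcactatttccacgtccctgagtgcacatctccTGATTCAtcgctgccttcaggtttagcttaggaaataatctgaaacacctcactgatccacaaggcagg
The Gm24940 peak had 60.8, 84.4 and 74.4 CPM in tumors 1, 2 and 3. Accessibility of the Gm49198 peak was 1.04, 1.18 and 10.2 CPM, and that of the Lpcat1 peak 0.451, 1.10 and 8.06 CPM, so that tumor 3 stood apart by the choice of this pair.

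The labelled cell type was checked first. The libraries are labelled as SCLC cells, yet neuroendocrine genes were near or below detection in all 3 tumors while most fibroblast genes were far above the median gene. The median of the 12 neuroendocrine markers was 0.613, 0.190 and 0.110 TPM in tumors 1, 2 and 3, against 3.80, 3.05 and 2.04 TPM over all 21596 protein-coding genes. Neurod1 had no read in any library. The other defining markers Insm1, Chga, Chgb, Syp and Calca reached at most 1.59 TPM, which was Chga in tumor 1. Of the 12, only Uchl1, a ubiquitin hydrolase (23.4, 33.8 and 5.99 TPM), and Ncam1, an adhesion molecule (9.64, 5.03 and 15.6 TPM), exceeded 1 TPM on average, and both are also known from other cell types. At the start sites, 11 of these 12 markers were in the lowest 3 deciles of accessibility, as were 6 of the 12 fibroblast markers. By definition these are 3 of the 10 deciles of all protein-coding genes with a peak at the start site.

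Fibroblast markers had a median of 355.6, 328.7 and 214.9 TPM, and 11 of 12 exceeded 1 TPM on average, as did 57.2% of all protein-coding genes. Col1a1 (chr11:94936224-94953042), which encodes a chain of type I collagen, was at 1969, 1111 and 3450 TPM. Mmp2, a matrix protease, was at 821.6, 2191 and 321.3 TPM, and Dcn, the proteoglycan decorin, at 348.6, 1480 and 120.8 TPM. Tumor 2 was highest for both and tumor 3 lowest, the opposite of the order for Col1a1. Pdgfra, a receptor of fibroblasts, was at 362.7, 148.7 and 106.2 TPM, and Thy1, a surface marker, at 375.7, 542.2 and 676.8 TPM. Lum reached 30.4 TPM in tumor 2 and at most 0.151 TPM in the others, and Postn stayed between 0.349 and 1.28 TPM. The data therefore go against the label of the cells as far as these markers reach, and the cells are named by their genotype below. Since bulk samples were measured, fewer cells of a type and less RNA per cell cannot be told apart.

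Genes of the connective tissue programme were high as a group. All 20 genes of the list of collagens and matrix exceeded 1 TPM on average, against 57.2% of all protein-coding genes. Their medians were 479.9, 506.9 and 323.5 TPM. Fibronectin (Fn1) was at 1341, 1434 and 968.1 TPM, and Sparc, a matrix glycoprotein, at 1076, 1181 and 1745 TPM. Col6a3 and Col12a1 were the members with the lowest levels in tumor 3 relative to the others, with Col6a3 at 264.0, 68.0 and 13.5 TPM and Col12a1 at 516.1, 486.1 and 29.7 TPM. Of 18 mesenchymal transcription factors, 17 exceeded 1 TPM on average, with list medians of 26.4, 24.3 and 16.9 TPM. Twist1, a regulator of mesenchymal identity, had one of the most even levels (115.0, 99.3 and 115.6 TPM), as had Zeb1, a repressor of epithelial genes (31.5, 29.2 and 29.5 TPM). Prrx1 was at 193.7, 281.2 and 64.1 TPM. Tbx4, a regulator of lung mesenchyme, was at 57.4 TPM in tumor 1, 0.279 TPM in tumor 2 and 0 in tumor 3. Its start site was likewise highest in tumor 1, with 8.40, 0.521 and 0.723 CPM.

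**Figure D1:**
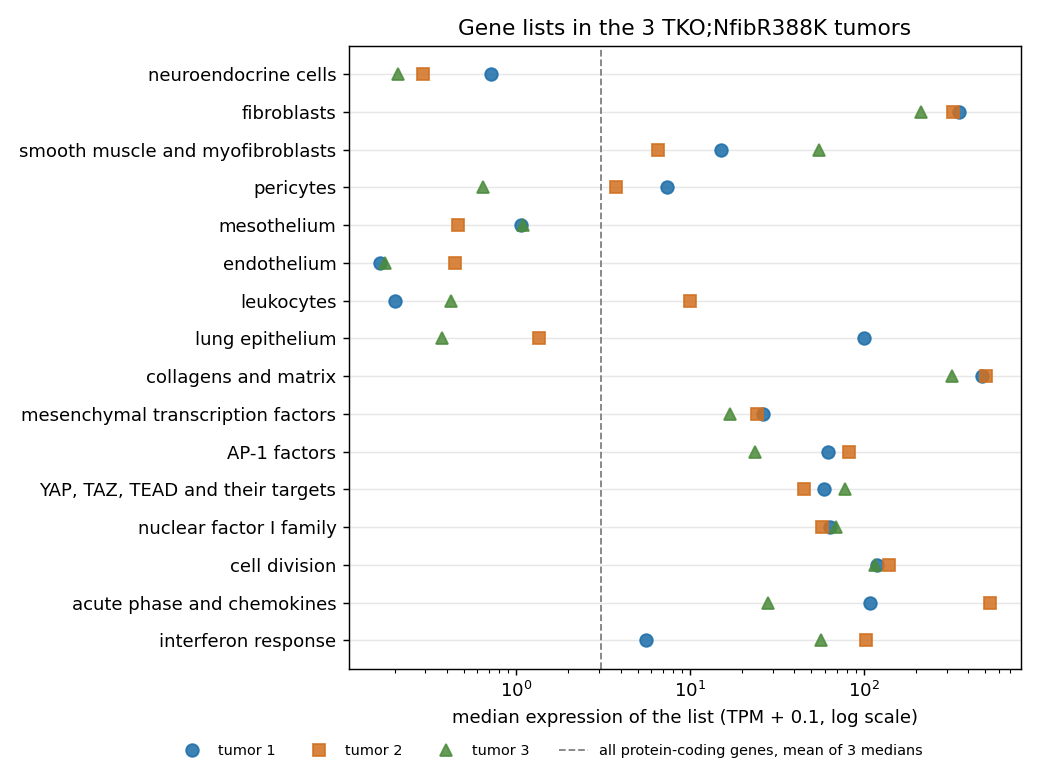
Median expression (TPM + 0.1, log scale) of each gene list in each tumor, 1 point per RNA-seq library. The dashed line is the mean of the 3 medians over all protein-coding genes. The fibroblast and matrix lists lie far to the right and the neuroendocrine list to the left in all 3 tumors, while lung epithelium is high only in tumor 1, leukocytes only in tumor 2, and the interferon list is lowest in tumor 1.

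Among the alleles of the model, Nfib itself (chr4:82290173-82705750) was at 23.0, 17.1 and 17.8 TPM (19.3 ± 3.22, SD, n = 3), and its start sites were at 47.0, 51.9 and 48.9 CPM. These gene counts do not show the R388K base change. Nfic and Nfix, paralogs of Nfib, were expressed at higher levels per length, with 121.7, 167.4 and 178.0 TPM for Nfic and 104.3, 97.4 and 120.5 TPM for Nfix. Nfia was lower, at 13.1, 10.2 and 14.6 TPM. Carm1, the methyltransferase that acts on NFIB, was at 67.7, 65.9 and 61.0 TPM.

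Of Rb1, Rbl1, Rbl2 and Trp53, Rbl1 (chr2:157145893-157204534, minus strand) differed most between the tumors. Whether Rbl1 or Rbl2 is the conditional gene is not settled here, since the labels and most of the study's text differ. Rbl1 is taken first. This gene had 912, 29 and 861 reads, or 30.3, 0.917 and 26.5 TPM, so that tumor 2 was 33.0-fold below tumor 1. The peak over its promoter (chr2:157203351-157205131) had 22.1, 2.03 and 18.5 CPM, again low in tumor 2 alone. The next peak, in an intron (chr2:157202292-157202908), was instead highest in tumor 2, with 0.625, 5.24 and 0.416 CPM. Part of its sequence (16.7% of 32-base words) is found elsewhere in the genome. The neighbors Samhd1 and Rpn2, chosen after their values were seen, did not share the difference. Samhd1 on one side was at 46.8, 77.6 and 56.7 TPM, and Rpn2 on the other at 380.4, 431.6 and 381.0 TPM. Mroh8, between Rbl1 and Rpn2, had 0, 10 and 0 reads, so that it was detected in tumor 2 alone. Rb1 was at 17.8, 15.9 and 4.14 TPM, lowest in tumor 3, while its start site was similar (27.0, 32.3 and 25.3 CPM). Rbl2 was at 6.48, 6.95 and 3.49 TPM and Trp53 at 6.15, 2.81 and 5.43 TPM, the latter with start sites at 55.6, 55.5 and 56.9 CPM, in the highest decile. The counts are of whole genes, so recombination of single exons was not tested with these levels.

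Of the 15 SCLC regulators listed, 7 exceeded 1 TPM on average, against 57.2% of all protein-coding genes. Pou2f3 and Atoh1, which mark tuft cell-like tumors and a rare neuroendocrine state, had at most 0.0938 TPM. The forkhead factor Foxa2 (39.8, 6.40 and 1.17 TPM), Sox2 (15.96, 9.22 and 0 TPM) and the MYC family gene Mycn (14.3, 2.82 and 1.12 TPM) were highest in tumor 1. Yap1 was at 68.2, 43.0 and 67.0 TPM. Its partners and targets were expressed too, and all 10 genes of the YAP, TAZ and TEAD list exceeded 1 TPM on average. The receptor kinase Axl was at 502.3, 959.0 and 1057 TPM and the matricellular gene Ccn1 at 244.8, 638.4 and 617.1 TPM. Cell division genes were expressed at even levels, with list medians of 119.9, 140.5 and 116.8 TPM. Mki67, a proliferation marker, was at 112.8, 145.1 and 89.3 TPM and Top2a, a topoisomerase of dividing cells, at 272.4, 233.3 and 180.4 TPM.

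The 25 protein-coding genes with the highest mean TPM held 11.9, 10.96 and 12.9% of the summed TPM in tumors 1, 2 and 3. Of these, 6 are mitochondrial, led by mt-Co1, a subunit of cytochrome oxidase, with 20859, 15024 and 14290 TPM. All 6 were highest in tumor 1. The elongation factor Eef1a1 (8622, 9208 and 13040 TPM) and Lgals1, which encodes galectin-1 (7171, 7886 and 10464 TPM), were the highest nuclear genes, both with tumor 3 on top. Rplp1, a protein of the large ribosomal subunit, followed with 5423, 6748 and 8441 TPM, in the same order. Gapdh, a glycolytic enzyme, had 3305, 3294 and 3237 TPM and Tpt1 2970, 2848 and 2720 TPM, the most even levels of the 25. B2m, the light chain of MHC class I, was the least even, at 1053, 3702 and 5723 TPM, a 5.44-fold range. S100a11 was at 2009, 1599 and 5187 TPM and Spp1, which encodes osteopontin, at 3435.5, 3499.5 and 1294.5 TPM. The choice of scale matters for such a list, since only 12 of the 25 were also among the 25 highest by CPM, which does not correct for length.

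**Figure D2:**
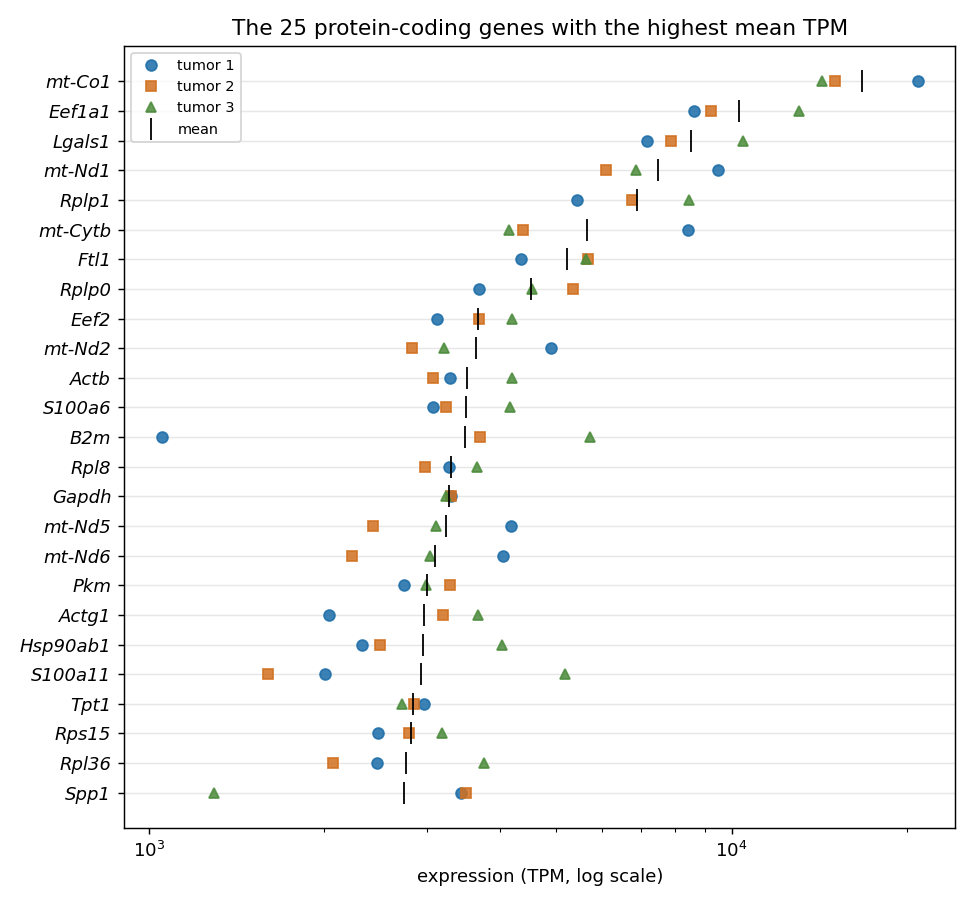
Expression (TPM, log scale) of the 25 protein-coding genes with the highest mean, 1 point per tumor and a bar at the mean. The points of most genes lie close together, while B2m, S100a11 and Spp1 are spread out, with B2m lowest in tumor 1 and Spp1 lowest in tumor 3.

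Spread between the tumors was large for a set of genes and small for most. The common biological coefficient of variation, the relative spread beyond counting error, was 0.413 over 12116 genes and 0.408 over 94085 peaks. Pearson correlations of log2 CPM between tumors were 0.858 to 0.881 for genes and 0.875 to 0.900 for peaks. Between 9.87 and 10.7% of genes and between 3.85 and 6.07% of peaks differed more than 4-fold in a pair. The median SD of log2 CPM was 0.265 over the 9483 protein-coding genes with a mean of at least 10 CPM. Among the 200 of these with the largest SD, 96 were highest in tumor 1, 78 in tumor 2 and 26 in tumor 3, while 121 were lowest in tumor 3.

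The 15 genes with the largest spread belonged mostly to epithelial and myeloid cells. Sftpb, which encodes surfactant protein B of alveolar type II cells (chr6:72304610-72314371), had 28568, 583 and 4 reads, or 2888, 56.2 and 0.375 TPM. Tumor 1 was thus high, tumor 2 far lower and tumor 3 barely above detection. Its start site had 13.6, 2.91 and 1.49 CPM. Sftpc, another surfactant gene, was at 399.1, 0.917 and 0.357 TPM, Krt7, a keratin, at 284.7, 15.7 and 0.0262 TPM, and Cdh1, the epithelial cadherin, at 166.3, 32.2 and 0 TPM. Sftpa1, Slc34a2, Dmbt1, Tspan8 and Ffar4 followed the same order and had no read in tumor 3. Itgam, an integrin of myeloid cells, was instead high only in tumor 2, with 0.0396, 114.1 and 0.478 TPM, and Pf4, a platelet and macrophage chemokine, was at 1.10, 881.6 and 5.12 TPM. Inpp5d and Csf2rb2, signaling genes of blood cells, were likewise highest in tumor 2, with 18.4 and 38.8 TPM there. Cd36, a fatty acid receptor, was at 27.9, 79.8 and 0.0514 TPM.

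These genes were part of wider differences in marker lists. Of the 12 lung epithelium markers, 11 exceeded 1 TPM in tumor 1, and their summed level was 4863, 310.9 and 9.29 TPM. Nkx2-1, the transcription factor of the lung lineage, was at 81.1, 5.74 and 0.195 TPM with start sites at 12.5, 7.93 and 1.93 CPM. Krt8 and Krt18, keratins of simple epithelia, were at 739.6, 128.0 and 1.602 TPM and at 420.2, 84.2 and 2.70 TPM. Foxj1, the factor of ciliated cells, stayed at or below 0.228 TPM in every tumor. Leukocyte markers were highest in number in tumor 2, where the macrophage genes Cd68 (27.7, 214.4 and 31.3 TPM), Csf1r (11.4, 64.7 and 5.59 TPM) and the neutrophil gene S100a8 (31.2, 272.6 and 6.38 TPM) peaked. Their summed level was 1075, 914.8 and 46.5 TPM, of which Lyz2, a lysozyme shared by macrophages and alveolar type II cells, made up 1004, 224.9 and 2.10 TPM. The lymphocyte genes Cd3e, Cd79a and Nkg7 were at most 0.507 TPM, and Ptprc, the defining leukocyte antigen, was at 0.0652, 4.33 and 0.0302 TPM. Endothelial markers were nearly absent, with summed levels of 3.21 to 6.84 TPM. The part of epithelial and myeloid cells in the spread of other genes was not tested.

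Several genes of contractile cells were highest in tumor 3, while the medians of the fibroblast and matrix lists were lowest there. Summed levels gave another order, with 6317, 7027 and 7002 TPM for the fibroblast list and 13848.7, 12183.5 and 15920.5 TPM for the matrix list. Acta2, smooth muscle actin, was at 106.6, 144.2 and 499.1 TPM, Tagln, an actin-binding protein, at 44.3, 27.0 and 193.2 TPM and Myl9, a myosin light chain, at 28.4, 40.5 and 144.0 TPM. The start site of Acta2 was also highest in tumor 3, with 15.6, 15.6 and 30.1 CPM. Of the same list, Actg2 (0.128, 8.40 and 64.6 TPM) and Cnn1 (25.7, 3.74 and 45.9 TPM) were also highest in tumor 3. Des was at 4.19, 4.49 and 6.44 TPM. Myh11, a gene of mature smooth muscle, stayed at most 0.225 TPM and was lowest in tumor 3. Of the YAP targets, Ankrd1 (chr19:36111961-36120099) was at 19.9, 45.1 and 234.6 TPM and Ccn2 at 10.6, 20.3 and 88.8 TPM. The peaks from 5000 bp before to 5000 bp after Ankrd1 summed to 20.2, 28.7 and 75.7 CPM, also highest in tumor 3.

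The interferon response separated tumor 1 from the others. The list of 12 genes had medians of 5.48, 103.5 and 56.8 TPM. Isg15, a ubiquitin-like protein induced by interferon, was at 13.2, 801.6 and 788.2 TPM, Oas1a at 2.22, 108.3 and 124.3 TPM and Bst2 at 96.3, 1002 and 874.9 TPM. Mx1 was the exception, with 2.47, 1.70 and 2.97 TPM. Start sites were also lowest in tumor 1, with a smaller range, for Isg15 and Oas1a. Isg15 had 3.37, 13.01 and 9.13 CPM and Oas1a 1.77, 16.8 and 13.7 CPM. The interferon element printed above for Isg15 was found on either strand in 6 of the 9 promoters of this list that were matched in RefSeq (250 bases before to 50 after the start), those of Ifit1, Ifit3, Isg15, Oas1a, Rsad2 and Bst2, and in 3.49% of all 27025 promoters. B2m, the gene with the widest range among the 25 highest, also holds it, as do Fbn1, Fosl2, Foxa1 and Saa3 of the other lists. A part of the element in their levels was not tested. The list of acute phase and chemokine genes had its highest median in tumor 2, with 108.5, 533.3 and 28.0 TPM. Saa3, an acute phase protein, was at 78.7, 2472 and 42.8 TPM, Il6 at 25.5, 202.4 and 2.96 TPM and the chemokine Ccl2 at 282.2, 1302 and 240.6 TPM. Hp, which encodes haptoglobin (705.3, 547.2 and 11.7 TPM), and Ccl20 (6.86, 0.4002 and 0 TPM) were instead highest in tumor 1, and the chemokine Cxcl12 was lowest in tumor 2 (59.4, 32.6 and 84.4 TPM).

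Sex-linked genes also differed. The Y-linked genes Ddx3y and Eif2s3y had 19.8 and 22.5 TPM in tumor 1 and at most 0.137 TPM in the others, while Xist was at 0.998, 69.4 and 71.1 TPM. The labels give no sex. Tumor 1 thus had the pattern of a male and tumors 2 and 3 that of females, and sex cannot be told apart from the other differences of tumor 1.

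The most open loci depended on whether repeated sequence was kept. By reads per kilobase of peak (CPM divided by length), the 10 most open peaks all held sequence found more than once in the genome, and the first was a peak of 1207 bp at chr2:98666183-98667389, over the predicted gene Gm10800, with 74064, 46101 and 30056 CPM. The peak at chr9:2999941-3038383, over Gm10719, had the most reads, with 111374, 66424 and 43034 CPM, and the peak at chr14:19415663-19419733, in Gm21738, had 84008, 50868 and 32529 CPM. All 3 were highest in tumor 1 and lowest in tumor 3. Peaks that repeat themselves at the interval of mouse major satellite DNA numbered 22 and held 26.5, 17.0 and 12.01% of all counts. Among the 10 most open peaks over 5000 bp from any start site, which had means of 702.2 to 4903 CPM per kilobase, the highest was at chr12:3109811-3110176, and again all 10 held repeated sequence. Reads in repeats can come from any copy, so these values do not show that the listed locus itself was open.

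A second ranking, chosen after these values had been seen, took only single-copy peaks of at least 500 bp. A peak was counted as single-copy when under 10% of its 32-base words occurred more than once in the genome, which held for 90.8% of peaks. Of the 1000 most open of these by reads per kilobase, 85.9% lay within 1000 bp of a start site, against 23.9% of all 75661 single-copy peaks of that length. The first 5 lay in intergenic sequence or at predicted genes, nearest to Gm11668, Gm27940, Gm43333, Gm37404 and CR555305.2, with 327.8 to 95.6 CPM per kilobase. Also among the first 10, at 45.5 CPM per kilobase or less, were the start sites of Sp1, a transcription factor that binds GC-rich promoters (chr15:102404746-102407574, 126.4, 134.1 and 125.8 CPM), Tsga10 (52.7, 88.1 and 68.9 CPM), the helicase gene Ddx59 (33.3, 52.8 and 39.8 CPM) and the kinase gene Map3k3 (75.4, 93.3 and 85.3 CPM). The Sp1 site was the most even of these. Away from start sites, the list included introns of Fgfr2, a fibroblast growth factor receptor (chr7:130834474-130836075, 75.4, 67.5 and 57.5 CPM), and of Mylip, a ubiquitin ligase (chr13:45397056-45398716, 64.8, 56.6 and 58.1 CPM).

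By place, promoters, defined as a peak middle within 1000 bp of a start site, made up 24.4% of the peaks with a mean of at least 1 CPM and held 53.4, 55.3 and 50.8% of the counts. Introns held 27.3, 24.7 and 26.5% and intergenic sequence 17.4, 17.9 and 20.4%. Promoter peaks had more reads and a smaller spread than distal peaks. Their median was 14.6 CPM with a median SD of 0.268 on the log2 scale, against 3.05 CPM and 0.504 for distal peaks over 5000 bp from any start site. Spread was smaller at higher read levels over all peaks, with a median SD of 0.266 at 10 to 30 CPM and 0.472 at 3 to 10 CPM, and the part of read level in the difference was not tested. The 8 peaks with the largest spread among those with a mean of at least 3 CPM included several far from coding genes. The peak at chr17:45828129-45829425 had 0.451, 34.2 and 1.27 CPM, high only in tumor 2. A pair of peaks on chromosome 4 near Gm13174, at chr4:153217334-153218222 and chr4:153250820-153251884, was far higher in tumor 1, with 21.8, 0.631 and 0.526 CPM and 10.3, 0.110 and 0.504 CPM. One at chr1:151550469-151550856 had no read in tumor 1, against 4.25 and 5.06 CPM in the others.

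Motif letters in distal peaks changed with accessibility. Single-copy distal peaks of at least 300 bp were ranked by mean CPM and divided into deciles of 5546 or 5547 peaks, and 300 bases about the middle were searched on both strands. The AP-1 motif TGANTCA, bound by dimers of FOS and JUN proteins, was present in 9.32% of the least open decile, 33.4% of the fifth and 34.9% of the most open decile. The single NFI site TTGGC was found in 60.7, 49.0 and 49.3% of the same deciles, so it was more frequent in the peaks with the fewest reads. The full NFI palindrome, with TTGGC and GCCAA 5 bases apart, was rare throughout, with 0.108% of all 66395 distal peaks. The TEAD motif GGAATG was present in 14.03, 21.8 and 23.8%. The CTCF core, which is CCA, AG and GGC with 2 free bases in each gap, was most frequent in the fourth decile (7.77%), with 1.46% in the first and 2.36% in the last. The E-box CAGCTG was found in 27.4, 22.5 and 21.8%, and the RUNX motif TGTGGTT in 6.76, 10.5 and 9.63%. GC content of these windows was close, with medians between 46.0 and 49.7%. Since the peaks were defined over all samples of the series, the least open deciles also hold peaks that were not open in these 3 tumors. At the top of the ranking the AP-1 share was lower. It was 21% in the 1000 most open distal peaks, or 28.1% when only single-copy peaks were kept, against 27.9% of all distal peaks.

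Genes for AP-1 subunits were expressed. Jund was at 377.9, 377.3 and 300.7 TPM, Junb at 317.1, 268.2 and 233.0 TPM, Jun at 269.8, 229.0 and 141.4 TPM and Fosl1, a partner of the JUN proteins, at 221.3, 257.8 and 144.7 TPM. Fosl2 was lowest in tumor 3, at 107.3, 141.5 and 32.9 TPM, as was Fos, at 16.9, 23.3 and 4.55 TPM. Distal peaks that stood out in a single tumor also differed in motif letters. Of the 1000 single-copy distal peaks with the largest excess in tumor 3 over both others, 42.6% held the AP-1 motif and 33.5% the TEAD motif. The Gm49198 and Lpcat1 peaks printed above were chosen to hold both motifs and so add nothing to these shares. In the corresponding peaks of tumor 1 the shares were 30.5 and 22.4%, and in those of tumor 2 they were 27.7 and 22.7%. All 18900 such peaks with a mean of at least 3 CPM gave 36.3 and 23.7%.

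**Figure D3:**
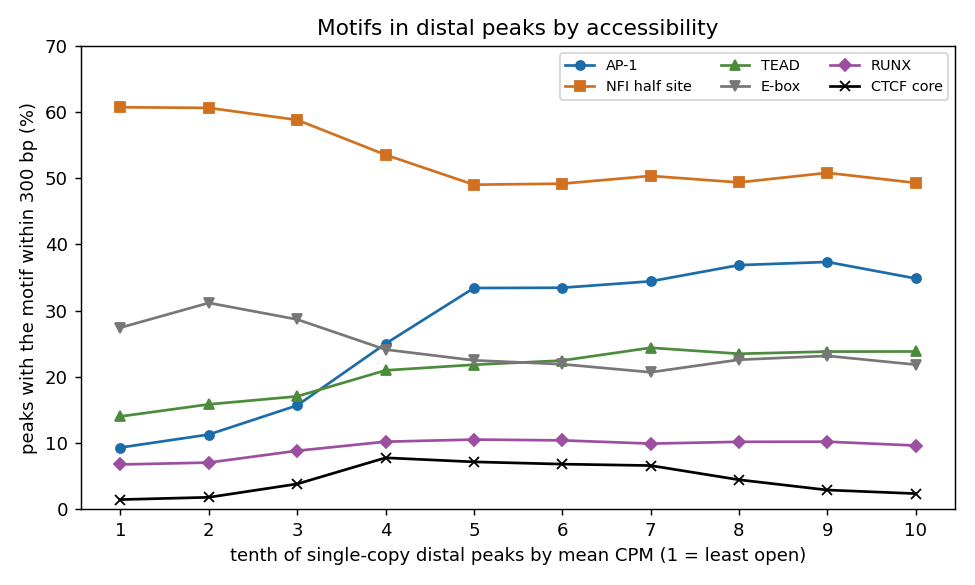
Share of single-copy distal peaks (%) that hold each motif within 300 bp, by decile of mean accessibility from the least open (1) to the most open (10), each point from 5546 or 5547 peaks. AP-1 rises from 9.32% in the first decile to over 30% from the fifth on, while the single NFI site (TTGGC) is highest in the first deciles.

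Expression followed accessibility at start sites, mainly as a step from closed to open. Start-site accessibility was the summed CPM of all peaks with their middle within 1000 bp of a start of a coding transcript, which 14416 of 21530 nuclear protein-coding genes had. Across these genes the Spearman correlation with TPM was 0.530 for the means of the 3 tumors, and 0.527, 0.552 and 0.555 within tumors 1, 2 and 3. These are descriptions, since genes are not independent replicates. Genes with no such peak were largely silent, and 77.6% of these 7114 were not detected in any library, against 9.72% of genes with a peak.

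In the lowest decile of start-site accessibility the median was 0.0726 TPM, and it increased to 7.28 TPM in the third decile (median 10.3 CPM at the start site) and 21.9 TPM in the fifth (20.04 CPM). From there to the highest decile (64.7 CPM) it only reached 34.7 TPM. The share of genes with at least 1 TPM went from 17.8% to 93.2% between the first and the fifth decile. Above the step, the quartiles of expression were wide, with 13.1 to 88.3 TPM in the highest decile. When only genes with at least 1 CPM in every RNA-seq library were kept, the correlation was 0.221 over 10627 genes, and with the genes lacking a peak entered at 0 it was 0.749 over 21530 genes. The number of distal peaks of at least 1 CPM within 100000 bp was less closely related, with a Spearman correlation of 0.194.

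**Figure D4:**
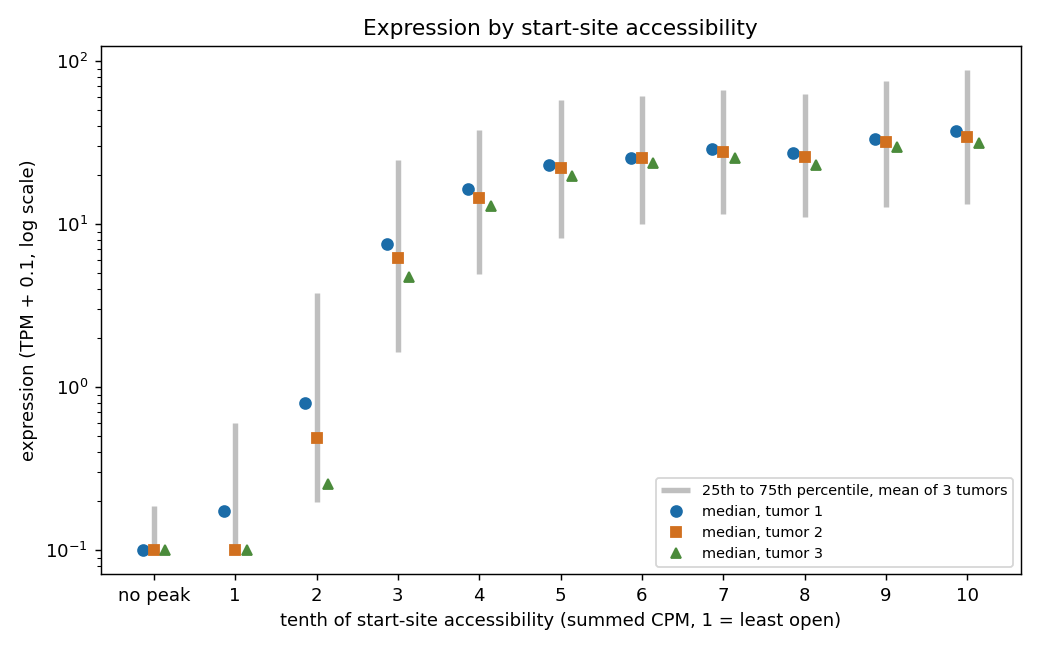
Expression (TPM + 0.1, log scale) of protein-coding genes by decile of summed start-site accessibility, with genes that have no start-site peak at the left. Points are the medians of each tumor and grey bars run from the 25th to the 75th percentile of the mean of 3 tumors. Medians climb steeply over the first 4 deciles and then level off near 30 TPM in all 3 tumors.

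The relation differed with promoter sequence. For 11230 genes with a start-site peak and a matched RefSeq promoter, the ratio of observed to expected CpGs was computed over 300 bases. Promoters with a ratio of at least 0.6 (7779 genes) had a median of 26.3 CPM and 21.6 TPM and a Spearman correlation of 0.422, and those under 0.6 (3451 genes) had 12.6 CPM, 5.18 TPM and 0.631. The Tpt1 promoter, with a ratio of 0.995, and that of Sftpb, with 0.316, are examples. Genes with CpG-poor promoters also varied more, with a median SD of log2 CPM of 0.362 against 0.241 among genes over 10 CPM. They made up 65.3% of 118 of the 200 most variable genes and 20.8% of all 7335 such genes over 10 CPM. The letters TATAAA in the last 60 bases before the start or the first 10 after it were present in 6.78% of the former and 1.27% of the latter.

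Some genes departed from the relation. Of the 1442 genes in the highest decile, 64 (4.44%) were not detected, against 9.72% of all genes with a start-site peak. By the ranking, the first were Gm10719, Gm10800 and Gm10801, which lie in the repeats described above, then the histone genes Hist1h2ad, Hist1h2ap and Hist1h3h and the interferon-like genes Gm13287 and Gm13290, whose start-site peaks all hold repeated sequence. Among genes with single-copy start sites, the first 8 (chosen after the values were seen) were 4930442H23Rik, 1700064H15Rik, Gm29394, Sco2, A730061H03Rik, Tomm6, Thap8 and Ttc39d. Of these, Tomm6, Thap8 and Ttc39d fall in the ninth decile and the others in the highest. In 6 of the 8 the peak also covers the start of another gene with reads. Examples are Dapk3, a kinase gene (87.3 TPM), at 4930442H23Rik and Srsf7, a splicing factor gene (91.6 TPM), at Ttc39d. Reads in overlapping genes were set aside as ambiguous by the counting, 4.27 to 4.495% of the reads, so a count of 0 for a gene that overlaps another is uncertain.

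In the other direction, 5290 genes had no peak middle within 5000 bp of a start, and 229 of these reached 1 TPM on average. The 8 highest were Lyz2, Pf4, Eno1b, Cfp, Mcpt1, AU021092, Tnxb and Gm4737. Lyz2 and Pf4 were described above. Cfp, the complement factor properdin, was at 7.68, 289.5 and 7.65 TPM and Mcpt1, a mast cell protease, at 172.9, 5.42 and 0 TPM. Eno1b, a near copy of the enolase gene Eno1 with which reads may be exchanged, was at 1.06, 317.4 and 1.28 TPM. Tnxb, which encodes the matrix protein tenascin-X, was the only one of the 8 above 15 TPM in every tumor (91.5, 46.6 and 19.9 TPM).

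Differences between the tumors were shared by both assays. For 10787 genes, the deviation of each library from the mean of the 3 was taken in log2 units for expression and for start-site accessibility. Each RNA-seq library correlated with the ATAC-seq library of its own number, with Pearson correlations of 0.684, 0.591 and 0.658 and Spearman correlations of 0.378, 0.466 and 0.450. All 6 pairs of unequal number were negative, which the centering on 3 libraries favors, with Spearman correlations of -0.29 to -0.146. On autosomes alone the 3 Pearson correlations were 0.684, 0.585 and 0.654. The labels do not say that equal numbers mark the same animal, and the statement of the study on shared tumors gives no numbers.

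The larger the range of expression, the more often the start site followed. Expression differed by under 0.5 log2 units between the highest and the lowest tumor in 4916 genes. Of these, the same tumor was highest at the start site in 36.7%, and the median start-site range was 0.356 log2 units. Over all 10787 genes compared, the same tumor was highest in 44.7%. For the 460 genes with a range of at least 4 log2 units, it was the same tumor in 81.5% and the median range at the start site was 1.38 log2 units. Accessibility thus spanned a smaller range than expression, as with Isg15 and Sftpb. For the genes of largest spread, summed peaks from 5000 bp before to 5000 bp after did not always follow. Sftpc (54.6, 61.8 and 57.9 CPM) and Slc34a2 (12.7, 17.6 and 11.7 CPM) were highest in tumor 2 but expressed most in tumor 1. Itgam (4.30, 4.09 and 7.36 CPM) and Inpp5d (2.74, 4.80 and 8.81 CPM) were highest in tumor 3 but expressed most in tumor 2. Sftpb, Krt7, Cdh1, Tspan8, Tbx4, Ffar4, Cd36 and Csf2rb2 had the same highest tumor. Dmbt1, Sftpa1 and Pf4 had no such peak.

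Whole chromosomes deviated too. Over the genes of chromosome 12, the median deviation was -0.06, 0.30 and -0.23 log2 units in tumors 1, 2 and 3, and over its 2253 single-copy peaks it was -0.14, 0.28 and -0.13. Chromosome 15 showed 0.15, -0.14 and -0.03 for genes and 0.13, -0.19 and 0.03 for peaks. Across the 19 autosomes, the medians of the libraries of equal number had Pearson correlations of 0.781, 0.955 and 0.813. All pairs of unequal number lay between -0.682 and 0.113. Copy number was not measured here, and the study speaks of leaving copy number altered regions out.

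**Figure D5:**
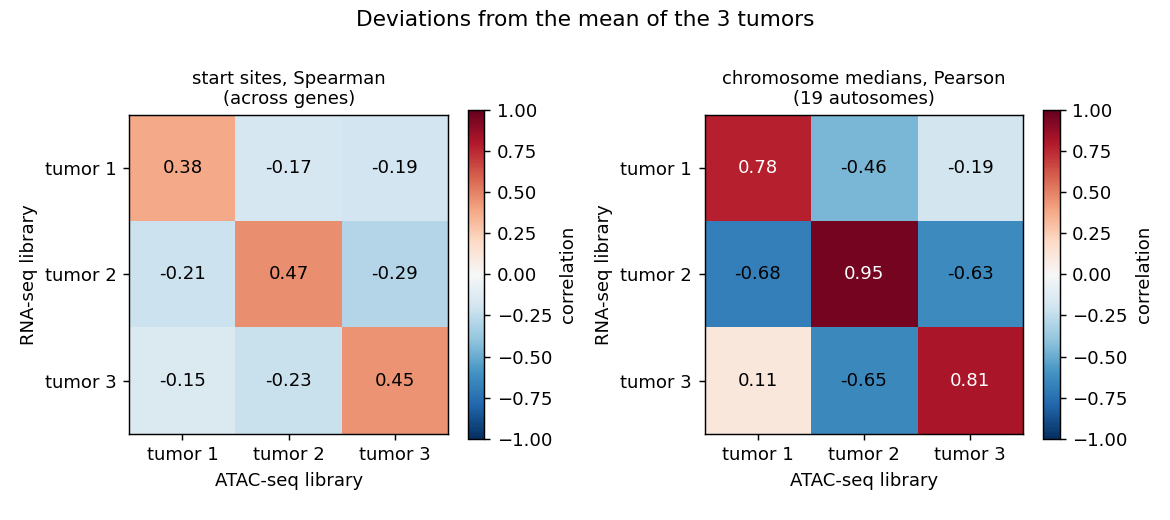
Correlations between RNA-seq libraries (rows) and ATAC-seq libraries (columns) of their deviations from the mean of the 3 tumors, over 10787 genes and their start sites (left, Spearman) and over the medians of 19 autosomes (right, Pearson). The 3 pairs of equal number on the diagonal are positive in both panels, and the pairs of unequal number are negative or near 0.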

How the data were processed

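The deposited RNA-seq values are counts per gene without normalization. Per the labels and Methods they come from htseq-count after trimming (Trim Galore) and mapping to mm10, the UCSC name of GRCm38, with HISAT2. ATAC-seq reads were mapped by the authors with Bowtie2, cleared of duplicates with Picard and counted on 1 merged peak set with featureCounts 1.6.3, per the file header, and these counts were deposited. Peaks came from MACS2 by the Methods, while the submitters' processing notes name Genrich. The columns named N1 to N3 were taken as TKO;NfibR388K. Genes were annotated with GENCODE M21, which holds 45229 of 46078 identifiers, and the TPM was computed from exon lengths. No peak lay beyond a chromosome end. CPM were scaled with TMM factors of edgeR 4.0.16 in R 4.3.3, except that the limits of detection and the filters of 1 CPM in every library used library totals, and log2 CPM used a prior count of 2. DESeq2 1.42.0 gave other size factors. Other steps used Python 3.11.15, pandas 2.3.3, numpy 2.4.6, scipy 1.17.1 and matplotlib 3.10.9. Dispersions and correlations were tested on simulated data. No pair of libraries agreed within sampling noise (chi-square per degree of freedom of at least 29.8).

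The members and gene lists were chosen with earlier results of these data known. Named genes were the 25 with the highest mean TPM, the members of the lists, the 15 genes and 8 peaks with the largest SD, the 10 most open peaks overall and away from start sites, and the 8 genes open but silent or expressed without a peak. Only protein-coding genes were ranked, genes by SD needed a mean of at least 10 CPM and peaks by SD at least 3 CPM. The single-copy rankings, the regions around Rbl1, Ankrd1 and other genes, the interferon element, TATAAA and the CpG ratio were added after the values were seen. So were the deciles of motif shares, the bins of expression range and the chromosome medians. No test across groups was made, since 1 genotype was analysed. Some items are not reported here.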

Additional observations from a re-analysis of the deposited data

How the results depend on the processing

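No paired analysis was possible because the results come from 1 genotype and from no test. Of 66 alternative values for 12 results, 44 were counted as unchanged and 22 as moved, with none reversed. No spread was given for the counts of expressed genes and open peaks, and all their alternatives are among the 44. At 1 CPM in 2 of 3 libraries these counts were 12490 genes and 76918 peaks, against 11487 and 63524. The rank correlation of expression with start-site accessibility (0.530) was 0.508 with a window of 500 bp, 0.577 with 5000 bp, 0.486 with reads per kilobase of peak, 0.221 for genes with at least 1 CPM in every RNA-seq library, 0.749 with genes lacking a start-site peak at 0 and 0.567 with CPM in place of TPM. With single-copy start sites, an alternative chosen after the data were seen, it was 0.568. Without each replicate in turn it was 0.529 to 0.543. The coefficient of variation was 0.646 for genes and 0.443 for peaks without the filter on low counts, and leaving out a replicate gave 0.411 to 0.431 and 0.367 to 0.422. The median SD of log2 CPM was 0.24 to 0.29 for genes and 0.33 to 0.35 for peaks with a replicate left out (chosen after the data were seen), against 0.32 and 0.42, where fewer samples lower it by construction. Without mitochondrial genes, the 25 highest genes held 9.93% of the summed TPM, and 11.7 to 12.5% with a replicate left out. Start-site peaks held 53.2% of reads, 62.1% when any overlap with the window counted and 49.2% without peaks over 5000 bp, and 52.1 to 54.4% with a replicate left out. The AP-1 share of 21% became 14.5% within 200 bp, 31.1% in the 5000 most open distal peaks, 28.1% with single-copy peaks and 19.8 to 21.6% with a replicate left out, the last 2 added after the data were seen. The fibroblast median was 272 to 342 TPM and the neuroendocrine median 0.150 to 0.402 TPM with a replicate left out. The causes of these changes were not tested. Depth limits statements on genes at 3 counts or fewer.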
